A study of Ogataea parapolymorpha with 2 samples.

Results

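The genes described here are the protein-coding genes of the methylotrophic yeast Ogataea parapolymorpha that the deposited annotation places in transcription (functional category K, and no other category) and that carry a NOG identifier but no COG number. A COG is a curated cluster of orthologous proteins, while a NOG is an orthologous group built automatically for proteins without one. The rule was applied to the annotation columns alone, without expression values, and it found 157 genes among the 5408 features of the table, or 157 of the 275 genes of category K. They fall into 143 NOGs. Of the 157 matches to a NOG, 156 had an e-value under 1e-10 in the deposited annotation and the weakest had 3e-09. The category letter is itself an annotation, and these expression data hold nothing that could check it.

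The series holds 2 RNA-seq libraries, 1 per group. A leu- culture of strain DL-1, called Hansenula polymorpha in the labels, was grown in YPD, a rich glucose medium, at 37 °C to an optical density of 1.0 and then split. The untreated library came from the part harvested without drug, and the caffeine-treated library from the part that received 20 mM caffeine for 2 h. The protocol does not describe a drug-free part kept for the same 2 h, so caffeine and time in culture cannot be told apart. Caffeine, a purine analogue, inhibits the TOR kinase of budding yeast and is a common agent for cell wall stress in yeasts.

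Transcription in yeast is carried out by RNA polymerases together with general factors that place them at promoters, coactivator complexes such as Mediator, SAGA and TFIID that relay signals to them, and sequence-specific regulators that bind upstream of particular genes. Fungi carry large families of such regulators, among them the zinc cluster proteins, which in budding yeast switch genes for the use of sugars, amino acids and other nutrients. Messages of regulators are often scarce, and a regulator can be controlled through its location or phosphorylation without a change in its message, so a message level is not a measure of activity. Neither the tables nor the gene reference used here names a protein for these genes, and each is therefore given by its locus tag and NOG, without a function of its own.

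The untreated library held 19184978 reads counted in genes and the caffeine-treated library 17789838. Levels of different genes are compared below as deposited RPKM (reads per kilobase of gene, adjusted for the size of the library). Differences between the libraries are log2 folds of caffeine-treated over untreated counts with the counts put on a common scale by TMM, the trimmed mean of log ratios. Each fold is followed in parentheses by its exact 95% interval (Clopper-Pearson), which covers counting error only. With 1 library per group no difference has a replicate check, no test of the treatment was possible, and genes were counted by a rule of size, at least 2-fold. Scaling by library totals in place of TMM adds 0.22 to every log2 fold, so all folds are relative to the TMM scaling. Deposited RPKM values are on the scale of library totals, so a ratio of RPKM values carries nearly the same shift.

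Of the 157 members 148 reached 10 CPM (counts as a rate of the library total) in 1 or both libraries and enter the comparison. After caffeine 13 of them stood 2-fold or more above the untreated level, 8 stood 2-fold or more below it, and 127 showed a smaller difference. Over all 4861 compared genes the background was 7.12% for 2-fold higher and 5.27% for 2-fold lower, against 8.78% and 5.41% of the compared members, so that the shares of the members were near the background. Scaled by library totals, the members gave 20 higher and 6 lower, so that the share of higher genes among those past 2-fold was 76.9% in place of 61.9%. Over all compared genes the same change of scaling took this share from 57.5% to 76.3%, with 564 genes higher and 175 lower, so the members again lay near the background. With at least 50 CPM required, 6 of 96 members (6.25%) were 2-fold higher, against 5.66% of the 3233 genes then compared. The median log2 fold of the members was 0.07, against 0.01 for all compared genes, and the interquartile range of the members ran from -0.26 to 0.45.

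Few members differed by 4-fold, and which members did so depended on the scaling. With TMM 3 of the 148 compared members were at least 4-fold lower, against 50 of the 4861 compared genes (1.03%). None was 4-fold higher, against 67 of the 4861 (1.38%). Of the 3 lower members, HPODL_01783 and HPODL_03904 reached 10 CPM only in the untreated library. With library totals 2 of the 148 were 4-fold lower and 3 were 4-fold higher. The higher ones were HPODL_04929 at 2.20, HPODL_03795 at 2.10 and HPODL_01831 at 2.01. The shares over all compared genes were then 0.72% and 1.93%. With TMM the member furthest down, HPODL_01783, was at -4.18, and the member furthest up, HPODL_04929, was at 1.98. Within these bounds 99 members, or 66.9%, differed by less than 0.5 on the log2 scale, a share of 64.0% among all compared genes. Of the 127 members within 2-fold 73 lay above 0, and for 30 of the 127 the counting interval included 0. Of all compared members 58.1% lay above 0, against 51.1% of all compared genes. The side of 0 depends on the scaling, since 22 members below 0 with TMM lay above it with library totals. The counts of 30 and 22 are not given for all compared genes, so they show no trait particular to the members.

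**Figure D1:**
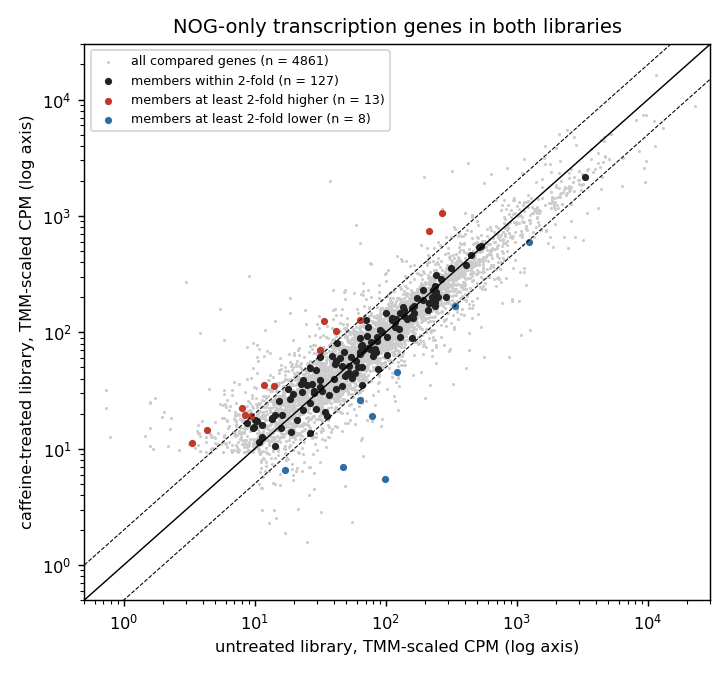
CPM after TMM scaling of the 4861 compared genes in the untreated library (horizontal, log axis) and the caffeine-treated library (vertical, log axis), 1 point per gene, with the 148 compared members in black, red and blue. The solid line marks equal levels and the dashed lines 2-fold; 127 members lie between the dashed lines, 13 above and 8 below, and the 2 red points above 200 CPM in the untreated library are HPODL_04929 and HPODL_01831.

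A member that passed the filter through a single library had to differ between them. This was so for 13 members. Of these, 10 reached 10 CPM only in the caffeine-treated library, 5 of them at least 2-fold higher. The other 3 reached it only in the untreated library, all 3 at least 2-fold lower. The counts of 13 higher and 8 lower members therefore include 5 and 3 that entered through a single library. Counts without such genes are given below, with the members divided by mean RPKM. The 9 members left out had 15 to 167 counts per library, and their log2 folds ran from -0.96 to 0.64, none past 2-fold. No member had 0 counts in either library.

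In level the genes were spread over a wide range. Deposited RPKM values ran from 1.13 to 1503 in the untreated and from 0.67 to 1420 in the caffeine-treated library. The compared members had a median of 49.0 RPKM untreated and 59.4 RPKM after caffeine. Genes of category K with a COG number had medians of 76.7 and 94.4 RPKM. Among all 157 members, 72 lay above the middle of all protein-coding genes untreated and 71 after caffeine, while 6 and 10 stood in the top 10% of genes. The order of the members was largely kept between the libraries, with a Spearman correlation of their RPKM of 0.88 over 157 genes, against 0.92 over all protein-coding genes. This is a description of 2 libraries, and genes are not independent replicates.

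The most abundant member was HPODL_02490 (NOG16555), with 58645 untreated and 41769 caffeine-treated counts. It alone held 18.0% of the reads of all members untreated and 12.3% after caffeine, and its log2 fold was -0.60 (-0.62 to -0.58). By RPKM it was first among the members untreated, at 1503, and second after caffeine, at 1152. In its place HPODL_01442 (NOG40802) came first after caffeine, with 1335 RPKM untreated and 1420 RPKM treated from 7228 and 7243 counts. The log2 fold of HPODL_01442 was -0.11 (-0.15 to -0.06), which becomes 0.11 with library totals. HPODL_02490 is a long coding sequence of 2211 bases and HPODL_01442 a short one of 459 bases, so that they stand side by side per length while their read counts differ widely.

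Below these, the order changed. HPODL_01905 (NOG92038) went from rank 3 with 852 RPKM to rank 5 with 689 RPKM, a log2 fold of -0.50 (-0.57 to -0.43) from 4221 and 3221 counts. HPODL_02559 (NOG148460) went from rank 4 with 827 RPKM to rank 7 with 474 RPKM. Their coding sequences have 435 and 552 bases, short like that of HPODL_01442. Rank 3 was taken by HPODL_04929 (NOG32742), which came from rank 15 among the members with 177 and 809 RPKM. Rank 4 was taken by HPODL_01831 (NOG79206), which came from rank 14 with 183 and 736 RPKM. Of the 10 most abundant members in each library 7 were shared. Added over all 157 members, the scaled counts came to 18311 CPM untreated and 17741 CPM after caffeine, a ratio of 0.97. Without HPODL_02490 the sums were 15014 and 15564 CPM, a ratio of 1.04. With library totals the ratios were 1.13 and 1.21, so that the direction of the sum over all members depends on the scaling.

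**Figure D2:**
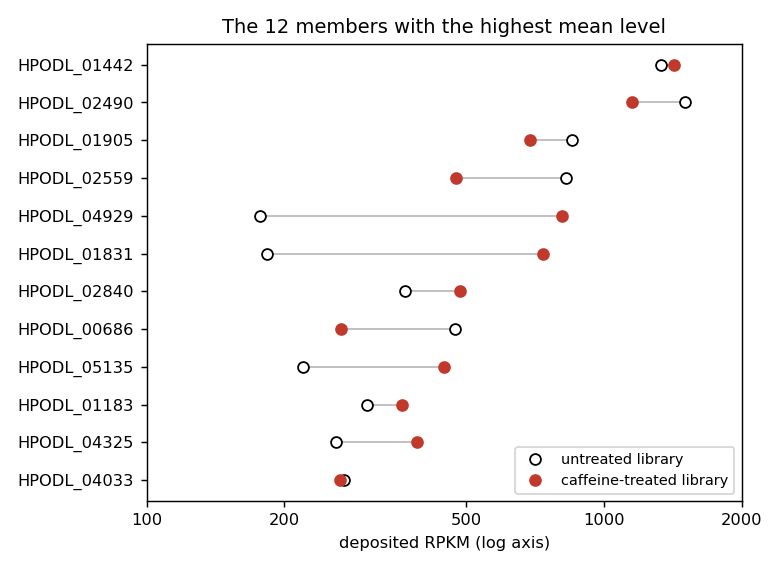
Deposited RPKM (horizontal, log axis) of the 12 members with the highest mean level, 1 row per gene, with open points for the untreated and red points for the caffeine-treated library. HPODL_04929 and HPODL_01831 moved up from below 200 RPKM to 809 and 736 RPKM, while HPODL_02490, HPODL_01905, HPODL_02559 and HPODL_00686 moved down.

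Among members higher after caffeine, 3 combined a large fold with many reads. HPODL_04929 had 4742 untreated and 20181 caffeine-treated counts, a 3.95-fold difference and a log2 fold of 1.98 (1.93 to 2.03). HPODL_01831 had 3832 and 14313 counts, 3.46-fold higher at 1.79 (1.74 to 1.84). HPODL_03795 (NOG09438) had 599 and 2380 counts, 3.68-fold higher at 1.88 (1.75 to 2.01). The first and second of these were already abundant without the drug, whereas HPODL_03795 stood at 15.6 RPKM untreated and moved from rank 135 to rank 67 among the members with 66.8 RPKM.

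The next members were scarce in the untreated library. HPODL_04548 (NOG37880) had 77 and 280 counts and a log2 fold of 1.75 (1.38 to 2.14). HPODL_02399 (NOG10659) had 59 and 214 counts, at 1.75 (1.33 to 2.19). At 2.31 and 1.90 RPKM untreated they were among the 4 lowest members, and after caffeine they still stood at ranks 148 and 150 of 157. Adding 5 CPM to both libraries, which damps folds of scarce genes, brought them to 1.07 and 0.96, the latter under 2-fold. HPODL_00158 (NOG21660), with 142 and 425 counts, was at 1.47 (1.20 to 1.76), and HPODL_01618 (NOG05687), with 208 and 682 counts, at 1.60 (1.38 to 1.84). HPODL_04548, HPODL_02399 and HPODL_00158 reached 10 CPM only in the caffeine-treated library, so each had to differ between the libraries. With a mean of at least 10 CPM required, HPODL_04548 and HPODL_02399 were not compared.

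Among the remaining higher members, HPODL_05049 (NOG23857) had 740 untreated and 1967 treated counts, at 1.30 (1.18 to 1.43). HPODL_00239 (NOG40939), with 562 and 1346 counts, stood at 1.15 (1.01 to 1.30). These genes went from 39.4 to 113 RPKM and from 41.2 to 106 RPKM, which moved them from ranks 92 and 90 to ranks 31 and 34 among the members. HPODL_00636 (NOG103000), with 250 and 663 counts, was at 1.30 (1.09 to 1.51). HPODL_02039 (NOG216803) was at 1.21 (0.93 to 1.49) from 150 and 373 counts, and HPODL_02284 (NOG101746) at 1.04 (0.77 to 1.31) from 166 and 367 counts. The intervals of HPODL_02039 and HPODL_02284 reach under 2-fold, and with 5 CPM added they stood at 0.86 and 0.75. Both reached 10 CPM only in the caffeine-treated library. The last of the 13, HPODL_02184 (NOG87126), fell outside the rule for named genes and was picked after its value was seen: with 1125 and 2434 counts it lay at the limit, at 1.00 (0.90 to 1.11).

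The whole counting interval lay past 2-fold for 10 of the 13 higher and 7 of the 8 lower members. The 10 include HPODL_04548, HPODL_02399 and HPODL_00158, which passed the filter through a single library. These intervals cover counting error only, and the share over all compared genes is not given here.

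**Figure D3:**
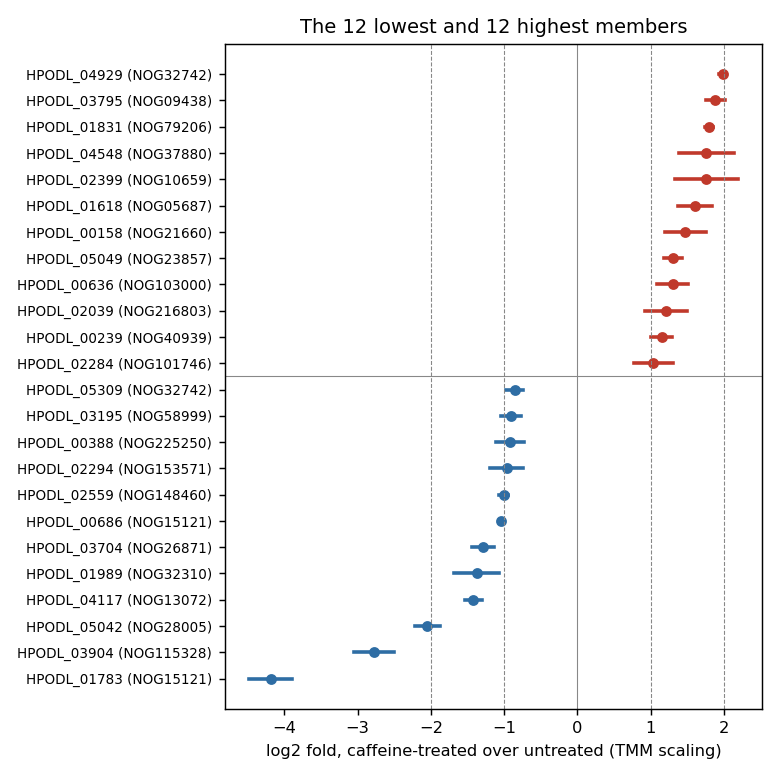
The 12 lowest (blue) and 12 highest (red) log2 folds among the compared members, caffeine-treated over untreated with TMM scaling, each with its exact 95% counting interval. Dashed lines mark 2-fold and 4-fold; with this scaling 3 members lie beyond 4-fold on the lower side and none on the higher side, whereas with library totals 2 lie beyond it on the lower and 3 on the higher side.

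On the lower side HPODL_01783 (NOG15121) stood apart. It had 1769 counts untreated and 105 after caffeine, 18.2-fold lower, at a log2 fold of -4.18 (-4.48 to -3.90). Per length it went from 53.5 to 3.42 RPKM, that is from rank 71 to rank 155 of the 157 members. With 5 CPM added to both libraries its fold was -3.32. HPODL_03904 (NOG115328) followed with 843 and 133 counts, 6.84-fold lower at -2.77 (-3.05 to -2.51), and went from rank 74 to rank 149. Its fold with 5 CPM added was -2.13. HPODL_01783 and HPODL_03904 reached 10 CPM only in the untreated library. HPODL_05042 (NOG28005) had 1396 and 364 counts, 4.14-fold lower at -2.05 (-2.22 to -1.88). It went from 75.8 to 21.2 RPKM and from rank 43 to rank 136. These 3 genes, of middle rank without caffeine, were at rank 136 or lower of 157 with it, and HPODL_05042 was under 4-fold with library totals, at -1.83.

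The other 5 lower members differed by 2.68-fold or less. HPODL_04117 (NOG13072) had 2167 and 873 counts, at -1.42 (-1.54 to -1.31). HPODL_01989 (NOG32310) had 304 and 127 counts, at -1.37 (-1.68 to -1.07), and at -0.93 with 5 CPM added. It reached 10 CPM only in the untreated library. HPODL_03704 (NOG26871) had 1137 and 502 counts, at -1.29 (-1.44 to -1.14). The abundant genes of this set lay at its edge. HPODL_00686 (NOG15121) had 21836 and 11432 counts, the second highest untreated count among the members, at -1.04 (-1.08 to -1.01). HPODL_02559 had 5956 and 3202 counts, 2.01-fold lower, with an interval of -1.07 to -0.94 on the log2 scale. With library totals these were at -0.82 and -0.79, within 2-fold.

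Just inside the limit on the lower side stood HPODL_02294 (NOG153571) at -0.97 (-1.19 to -0.74) from 471 and 260 counts, HPODL_00388 (NOG225250) at -0.92 (-1.11 to -0.73) from 638 and 364 counts, and HPODL_03195 (NOG58999) at -0.90 (-1.04 to -0.77) from 1172 and 676 counts. Their intervals reach past 2-fold. HPODL_05309 (NOG32742), the twelfth lowest compared member, had 1544 and 920 counts and stood at -0.86 (-0.98 to -0.74). In all 10 members lay within 0.1 of the 2-fold limit on the log2 scale, 4 of them past it and 6 short of it, so that the counts of 13 and 8 depend on small differences for these genes.

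When the compared members were divided by their mean RPKM over both libraries, the 49 lowest, up to 36.5 RPKM, had a median log2 fold of 0.37, with 33 above 0. The 49 in the middle had a median of 0.07 and the 50 highest, from 74.4 RPKM, a median of -0.05, with 22 above 0. The same order was seen over all compared genes, which, divided in the same way, had medians of 0.19, 0.05 and -0.16. The lowest part held 11 of the 13 members that passed the filter through a single library, and without them its median was 0.14 over 38 members, with 25 above 0, an alternative chosen after seeing the data. The corresponding value over all compared genes was 0.14. In the members the counts past 2-fold were 6 higher and 4 lower in the lowest part, 4 and 2 in the middle and 3 and 2 in the highest. Over all compared genes these counts were 184 and 76 of 1620, 88 and 55 of 1620, and 74 and 125 of 1621. Part of these counts was set by the filter. Genes that passed through a single library were 11 of 49 members in the lowest part, against 267 of 1620 over all compared genes. In the middle they were 2 of 49 against 34 of 1620, and in the highest 0 of 50 against 8 of 1621. Without genes that passed through a single library, members had 2 and 1 of 38, 3 and 2 of 47, and 3 and 2 of 50. All compared genes then had 73 and 40 of 1353, 78 and 49 of 1586, and 70 and 124 of 1613.

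Members with the same NOG did not all move together. Within the 157 genes 12 NOGs were shared, 10 by a pair and 2 by 3 genes, 26 genes in all, and 10 of these NOGs had at least 2 compared genes. In 4 of the 10 the compared genes lay on both sides of 0. Of all 148 compared members 86 lay above 0 and 62 below, so any 2 members would often lie on both sides. With library totals HPODL_03459 of NOG91962 moved from -0.20 to 0.02, to the side of HPODL_01452. The 12 pairs of compared genes that share a NOG differed by a median of 0.62 on the log2 scale, against 0.58 over all 10878 pairs of compared members. A difference of at least 1 was seen in 3 of the 12 pairs and in 28.0% of all pairs. The 12 pairs are not independent, since the genes of NOG12840 enter several of them. How reads of similar copies were assigned is not stated in the sources used here, and sharing of reads between them was not tested.

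NOG32742 gave the plainest contrast: HPODL_04929 was the highest of all members at 1.98 and HPODL_05309 among the lowest at -0.86. Without caffeine HPODL_04929 had 177 RPKM and HPODL_05309 had 64.9 RPKM, and with it 809 and 41.6 RPKM. In NOG15121 both genes were at least 2-fold lower, but by unequal amounts. HPODL_00686 kept 267 of 473 RPKM, while HPODL_01783 kept 3.42 of 53.5 RPKM. This was the widest gap of all shared NOGs, 3.14 on the log2 scale.

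In NOG10659 HPODL_02399 stood at 1.75 and the more abundant HPODL_04831, with 854 and 1291 counts, at 0.49 (0.36 to 0.61). The other gene of this NOG, HPODL_00891, was under the filter, with 114 and 84 counts, and lay at -0.55 (-0.97 to -0.13). NOG21660 had both genes above 0, HPODL_00158 at 1.47 and HPODL_04389 at 0.63 (0.35 to 0.91) from 174 and 290 counts. In NOG37880 HPODL_04548 stood at 1.75, while HPODL_05051, the scarcest member in both libraries, had 27 and 15 counts, with an interval of -1.97 to 0.00 that leaves its direction undetermined at this depth. Other NOGs held together: the 3 genes of NOG12840 lay between -0.15 and -0.06, and the 2 genes of NOG00377 were at 0.10 and 0.11. The NOG of the most abundant member, NOG16555, also held HPODL_04597 at 0.28 (0.20 to 0.36), with 2407 and 3150 counts, on the other side of 0 from HPODL_02490. These 3 groups were picked after their values were seen.

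**Figure D4:**
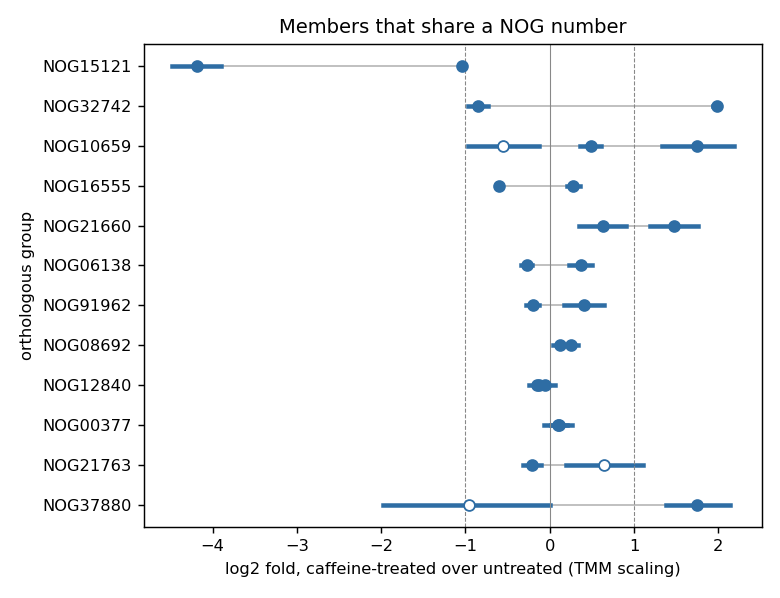
Log2 folds of the 26 members that share a NOG number, 1 row per NOG and 1 point per gene, with exact 95% counting intervals (thick bars). Open points are genes under the filter of 10 CPM. NOG15121 and NOG32742 span 3.14 and 2.84 on the log2 scale, while NOG12840 and NOG00377 span less than 0.10.

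The members were scattered over the genome. All 7 chromosomes of the reference assembly Hansenula_2 held compared members, from 9 on chromosome I to 30 on chromosome VII, and in only 2 cases were members immediate neighbours. These pairs were HPODL_05268 (0.13) with HPODL_04450 (0.25) and HPODL_03195 (-0.90) with HPODL_03196 (0.09).

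Of the 8 lower members 3 had a compared neighbour that was also at least 2-fold lower, as had 77 of the 256 lower genes of the whole table (30.1%). Of the 13 higher members 3 had a compared neighbour at least 2-fold higher, as had 91 of the 346 higher genes (26.3%). The neighbours, picked after their values were seen, included HPODL_01784 (NOG07304, category G, carbohydrate transport and metabolism), at -2.45 beside HPODL_01783, and HPODL_01619 (NOG212170, category G), at 2.90 beside HPODL_01618. HPODL_01784 had 1147 untreated and 227 caffeine-treated counts and HPODL_01619 had 186 and 1500. The other 4 were HPODL_05041 (COG0323, the MutL mismatch repair group) at -1.60 beside HPODL_05042, HPODL_00687 (NOG41640) at -1.41 beside HPODL_00686, HPODL_00635 (NOG08759) at 1.04 beside HPODL_00636, and HPODL_02398 (COG1064, zinc-dependent alcohol dehydrogenases) at 1.21 beside HPODL_02399. A neighbour past 2-fold in the opposite direction was HPODL_01830 (COG0596), at -1.01 with 640 and 343 counts beside HPODL_01831 at 1.79. Scarce neighbours under the filter were left out, among them HPODL_04547 at 1.69 and HPODL_04549 at 2.91 beside HPODL_04548. Also left out was HPODL_00159 at 1.60 beside HPODL_00158. Over all compared genes within 2-fold, 10.8% had a compared neighbour at least 2-fold higher and 8.64% one at least 2-fold lower. None of the 21 members past 2-fold overlapped a neighbouring gene in the reference, and 2 of the other compared members did.

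Beside the members stood 118 genes of category K that carry a COG number, among them RNA polymerase subunits and general factors, of which 112 were compared. Their median was 0.17, and 9 of them were past 2-fold on the higher side and 2 on the lower. Their highest gene, HPODL_02093 (COG1167, the group of MocR-type regulators and related aminotransferases), had 331 and 2800 counts and stood at 2.97 (2.81 to 3.14), past every NOG-only member. Subunits of general factors among the 9 were HPODL_04144 of TFIIH (COG5144) at 1.50 (1.35 to 1.65) and HPODL_01786 of TFIIIB (COG5118) at 1.17 (0.94 to 1.40). Homeodomain-type genes (COG5576) went both ways, HPODL_02118 at 1.12 (1.00 to 1.23) and HPODL_05037 at -1.03 (-1.12 to -0.94). The 5th percentile of this set was -0.51, against -0.99 for the members, a difference that was not tested.

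NOG-only genes of the other single categories, 1988 compared, had a median of 0.03, with 6.54% past 2-fold on the higher side and 4.43% on the lower. Among the categories with at least 50 compared genes, the share past 2-fold in either direction ran from 3.70% of 108 signalling genes (T) to 35.2% of 54 carbohydrate genes (G). The members had 14.2%, against 12.4% of all compared genes. These shares were not tested against each other.

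**Figure D5:**
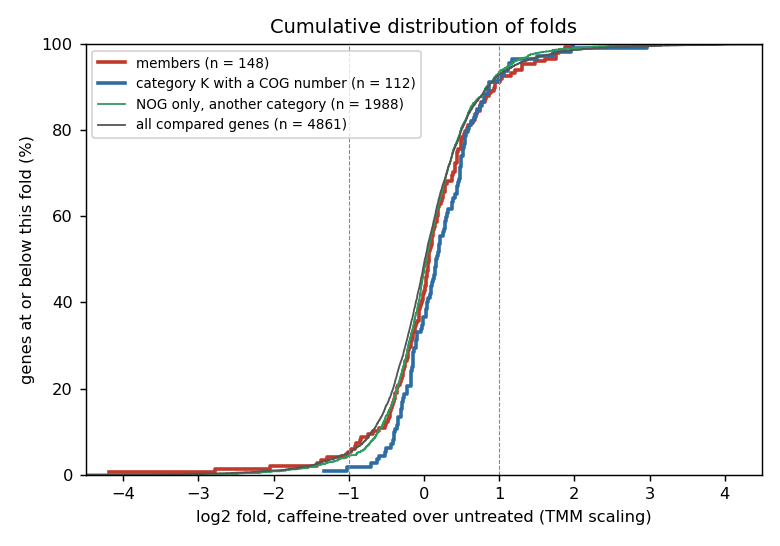
Cumulative share of genes (vertical, percent) at or below each log2 fold (horizontal, caffeine-treated over untreated, TMM scaling) for the 148 compared members, the 112 category K genes with a COG number, the 1988 NOG-only genes of another category and all 4861 compared genes. Dashed lines mark 2-fold. The members lie near the curve of all genes, with a median of 0.07 against 0.01. The category K genes with a COG number lie to the right of it at the median, 0.17. They do not at the 95th percentile, 1.12 against 1.20 for all compared genes.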

How the data were processed

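RNA from 1 untreated and 1 caffeine-treated culture part was sequenced from stranded mRNA libraries as paired reads of 100 bases, per the labels' protocols. Bowtie2 was used, per the submitters' processing notes; for the counting tool, genome build, annotation and use of strand the sources used here state nothing. The authors deposited raw read counts, RPKM, and 2 tables of counts scaled by RLE and TMM. In the deposited scaled tables each signal was, within 0.005 plus 1e-05 of the count, a raw count multiplied by a constant of its library. The deposited e-value, a score of the match to the orthologous group, served only to describe annotation.

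All 5408 locus tags matched the RefSeq table of Hansenula_2, used for gene type, chromosome and neighbours; the 83 RNA features had 0 reads. Counts of the 5325 protein-coding genes were scaled by TMM (edgeR 4.0.16, R 4.3.3) to effective totals of 17788292 and 19186645. Genes with at least 10 CPM by library totals in either library were compared. A count of 0 would be set to 3 counts. No molecular identifiers are described and reads can be PCR copies, so intervals cover counting error only. The calculation was tested on simulated counts drawn with counting error only, as the intervals assume. This checks the arithmetic and cannot show how cultures or libraries vary. Alternatives were library totals, DESeq2 1.42.0 size factors, other filters, 5 CPM added and the deposited RPKM ratio.

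Named were the 12 highest and 12 lowest compared members, the 6 with the highest mean RPKM and those sharing a NOG with a member past 2-fold. The members and lists were chosen with earlier results of these data known. Protein classes and promoter motifs were planned and are not analysed here.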

Additional observations from a re-analysis of the deposited data

How the results depend on the processing

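With 1 library per group no replicate could be left out. No paired analysis was possible because each group has 1 library. The 13 higher members were 20 with library totals and 20 by the deposited RPKM ratio, 6 with at least 50 CPM required (96 members compared), 9 with 5 CPM added, 12 with DESeq2 size factors, 11 with a mean of at least 10 CPM, and 13 without a filter. Over all 4861 compared genes the 346 higher were 564 with library totals, 553 by the RPKM ratio and 244 with 5 CPM added. With 50 CPM required they were 183 of 3233, and with DESeq2 size factors 337. With a mean of at least 10 CPM (146 members compared) they were 313 of 4766, and without a filter 411 of 5325. The 8 lower members were 6 with library totals, the RPKM ratio, 50 CPM required or 5 CPM added, and 8 otherwise. Over all compared genes the 256 lower were 175 with library totals, 178 by the RPKM ratio and 210 with 5 CPM added. They were 179 of 3233 with 50 CPM required and 257 with DESeq2 size factors. They were 243 of 4766 with a mean of at least 10 CPM and 317 of 5325 without a filter. The median of 0.07 became 0.28 with library totals and 0.28 by the RPKM ratio, both set by the scaling shift of 0.22, and stayed between 0.03 and 0.06 under the others. Taking every category that contains K found the same 157 genes. No named member past 2-fold changed sign. Of the named ones HPODL_00686 and HPODL_02559 came within 2-fold with library totals and by the RPKM ratio, and HPODL_02039, HPODL_02284, HPODL_02399, HPODL_01989 and HPODL_02559 with 5 CPM added. Depth limits the scarce members: half-widths of the counting intervals ran from 0.02 to 0.43, with a median of 0.12.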
